A study of Solanum lycopersicum x Solanum pennellii and Solanum lycopersicum and Solanum pennellii with 305 samples.

Results

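The 150 genes described here were far higher in root tips of cultivated tomato than in those of its wild relative Solanum pennellii. They were chosen from the counts alone. Each count was divided by the total of its library and scaled to 1000000 reads (CPM), and the 14662 of 29633 genes with a mean of at least 5 CPM in the cultivar M82 were ranked by the log2 ratio of the M82 mean to the PENN mean, with 0.5 CPM added to both. The first 150 are the members, and the values of M82 and PENN that chose them are given as a description, with no test. M82 is the Solanum lycopersicum cultivar that serves as recurrent parent, with 4 libraries, and PENN is the donor parent S. pennellii LA0716, with 3 libraries. The PENN samples were taken as such from their titles and organism, although another of their labels gives the cultivar as M82. The other libraries come from 75 introgression lines (ILs), each of which carries a segment of S. pennellii chromosome in the M82 background and is named for that chromosome, as IL3-5 for chromosome 3. IL7-5 and IL9-1-2 had 3 libraries and the other ILs 4. Each library was made from 7 to 14 pooled root tips of 1 cm, cut 3 to 4 days after germination, so a library is a pool of seedlings and an IL is a single inbred genotype. Between 683199 and 11338423 reads were counted per IL library (median 4286682), between 3078847 and 4835467 per M82 library and between 4174630 and 5659441 per PENN library.

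An introgression line separates the chromosomes of the donor from each other. In general, a transcript that is low in the donor through its own locus is low in lines that carry the donor copy of that locus, a pattern known as local or cis regulation. A transcript that depends on a donor allele elsewhere is low in a line that carries that other segment, a pattern known as distant or trans regulation. In a whole root tip, fewer cells of a type and less RNA per cell cannot be told apart, and because reads were mapped to S. pennellii sequence inside an introgression and in PENN, a lower level there cannot be told apart from a gene model that is absent or diverged in that reference. The files do not pair gene identifiers with gene names, so the members are given by their locus identifiers, without the version suffix. The digits after Solyc name the chromosome and the following digits the order along it.

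In M82 the members ranged from 6.52 to 1248 CPM, with a median of 29.9 CPM, and 24 had at least 100 CPM. Their PENN means had a median of 0.421 CPM and reached 31.4 CPM. No read was counted in any PENN library for 25 members and 1 to 3 reads in all for 28. The log2 ratio ran from 10.70 down to 3.80, with a median of 4.49, against a median of 0.05 over all 14662 genes. The ranking has no step at its end. The last members, Solyc06g054270, Solyc06g054550 and Solyc10g081500, had log2 ratios of 3.82, 3.81 and 3.80, and the first genes left out, Solyc04g071080, Solyc03g097610 and Solyc04g018100, all had 3.80. Highest in rank was Solyc03g119360, with 902, 830, 797 and 787 CPM in the M82 libraries and 0 reads in each PENN library. The most abundant was Solyc09g007900, with 1274, 1399, 1030 and 1291 CPM in M82 and 5.03, 6.08 and 5.65 CPM in PENN.

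**Figure D1:**
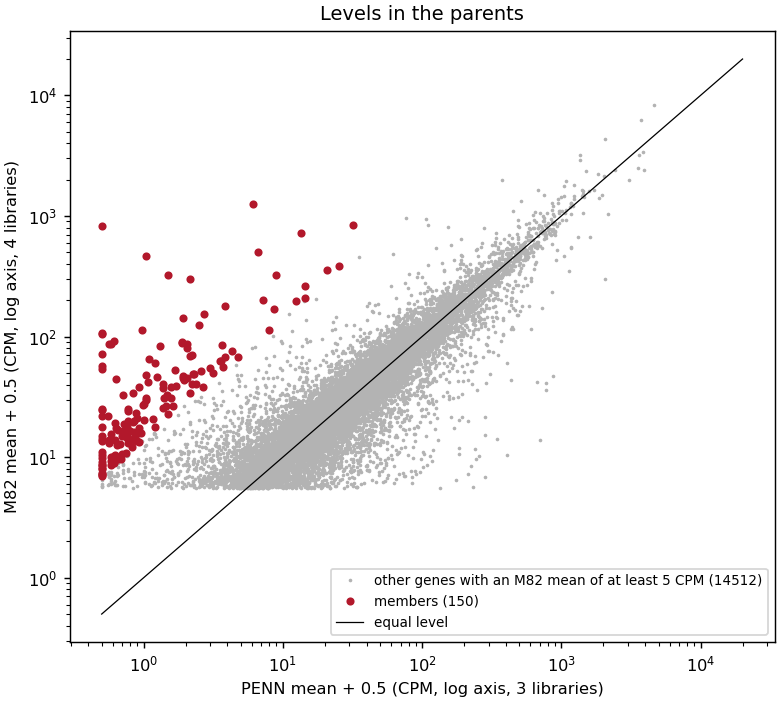
Mean level of each gene in PENN (horizontal axis, 3 libraries) and in M82 (vertical axis, 4 libraries), in CPM with 0.5 added, both axes on a log scale. At a given PENN level the 150 members lie above the other genes, and they range from 6.52 to 1248 CPM in M82 and from 0 to 31.4 CPM in PENN.

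The question put to the ILs was in which of them the M82 level is lost. M82 and PENN had chosen the members, so they stayed out of this test. All IL libraries were fitted together by edgeR's quasi-likelihood method, and each IL was compared with the pooled level of all ILs named for another chromosome. That level was taken as fixed, so p and the standard errors do not cover differences among the reference ILs. A gene was called lower if its p, adjusted by Benjamini-Hochberg over the 19412 genes tested in that IL, did not exceed 0.01, and called lost if its log2 fold change was also -2 or below, which is at most 25% of the level in the other ILs. All 150 members passed the filter on low counts. In the ILs of other chromosomes the members stood near their M82 level. The median over those ILs was 0.953 times the M82 mean for the typical member, and for 142 members it lay within 1.5-fold of M82. Only 2 members, both described below, had a median under 25% of M82.

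Of the 150 members, 147 are placed on chromosomes 1 to 12, and 119 of these were lost in at least 1 IL of their own chromosome, which is 81% of them. Among the other genes with an M82 mean of at least 5 CPM, 2.03% were lost in such an IL, and among all other placed genes tested 4.24%. The members form 882 pairs with ILs of their own chromosome, and 216 of these pairs were lost, or 24.5%, beside 0.719% over all genes at 5 CPM or more and 1.24% over all genes tested. With the milder losses included, 245 pairs from 129 members were called lower, or 27.8% beside 5.67% over genes at 5 CPM or more and 5.39% over all genes. Another 26 pairs, from 22 members, were called higher, or 2.95% beside 4.72% and 5.36%. In the lost pairs the IL retained a median of 3.42% of the level in the other ILs, or 3.44% with lines of 0 reads set to 3 reads. In 58 pairs 1% or less remained, in 142 pairs 5% or less, and in 20 pairs there was no read at all. In 194 of the 216 pairs every library of the IL lay below every library of the ILs of other chromosomes.

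Solyc03g119360 shows the size of the largest losses. In IL3-5 it stood at 0.494, 0.284, 0.849 and 0.385 CPM, whereas IL3-1, IL3-2 and IL3-4 had means of 922, 837 and 859 CPM. The log2 fold change in IL3-5 was -10.53 (standard error 0.39, adjusted p = 4.86e-118, edgeR's quasi-likelihood test), and the other ILs of chromosome 3 did not overlap with it. Solyc04g008810, which had 441 to 491 CPM in the M82 libraries, was lost in IL4-1 (0.701, 0.886, 0.579 and 1.70 CPM) and IL4-2 (0.658, 0.271, 0.808 and 0.484 CPM). Its log2 fold changes were -8.85 (standard error 0.52) and -9.57 (standard error 0.63). Solyc09g065330 fell from a median of 520 CPM in the ILs of other chromosomes to 4.42, 1.48, 2.66 and 2.27 CPM in IL9-2 and to 4.58, 3.44, 3.55 and 2.55 CPM in IL9-2-6. The other 7 ILs of chromosome 9 had means from 457 to 551 CPM for this gene. In IL8-1, 0 reads of Solyc08g062910 were counted in 4 libraries, which is at least 603-fold lower than the 105 CPM of the other ILs if 3 reads over the line are taken as the floor.

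**Figure D2:**
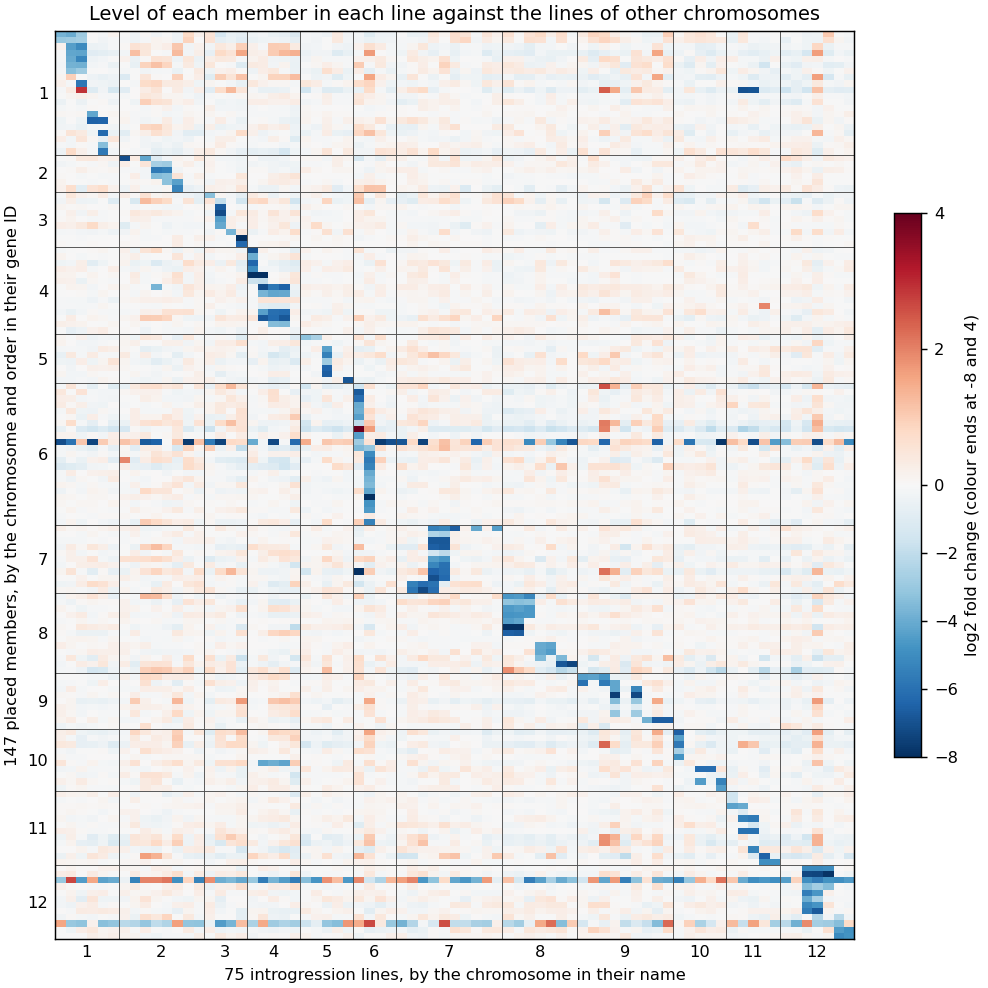
Log2 fold change of the 147 placed members (rows, in gene order by chromosome) in the 75 ILs (columns, by the chromosome in their name) against the ILs of other chromosomes. Blue is lower and red is higher. The 216 lost pairs on the own chromosome form the blue steps along the diagonal, and the 3 rows with blue cells in ILs of most chromosomes are Solyc06g035940, Solyc12g010760 and Solyc12g098400.

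Losses were also followed along the gene order of the chromosome. No member of the own chromosome was lost in 11 of the 75 ILs, 1 was lost in 21 ILs, and at least 2 were lost in 43. Within these 43 ILs, 240 pairs of a member and an IL lie between the first and the last lost member in gene order, both included. Of these pairs 195 were lost. A member can recur in several ILs, so the pairs are not independent. The first and the last are lost by construction, and of the 154 pairs strictly between them 109 were lost, or 70.8%. In 26 of the 43 ILs every member lying between, if any, was lost. An IL with only 2 lost members that are next to each other has none between and is counted here by construction. A member that was not lost could still be called lower. Without the 3 members that were low in many ILs of other chromosomes, described further on, 202 of 864 pairs (23.4%) were lost. Strictly between the first and the last lost member 100 of 122 pairs were then lost, or 81.97%. An unbroken run, again including ILs with none between, was found in 29 of 42 ILs. IL6-2 lost 12 of the 23 members of chromosome 6, from Solyc06g054270 to Solyc06g071130, with Solyc06g069630 alone not lost within the run. IL7-4 lost 10 of the 11 members of chromosome 7, and Solyc07g017580 was called lower there without being lost. IL12-3 lost 10 of the 12 members of chromosome 12 in an unbroken run. IL4-4, IL12-3 and IL6-2 were also the ILs with the most calls elsewhere, at 35.4%, 29.9% and 18.1% of the tested genes of other chromosomes. Without these 3 ILs, 108 members and 194 pairs were lost on the own chromosome. Close neighbours among the members were compared in the same way. There are 12 groups of members at most 10 gene models from one to the next, 26 members in all, and in 10 of these groups every member was lost in exactly the same ILs. In the trio Solyc08g006770, Solyc08g006860 and Solyc08g006910 these were IL8-1, IL8-1-1 and IL8-1-5, and in the trio Solyc06g067860, Solyc06g067880 and Solyc06g067890 it was IL6-2. The trios, Solyc06g071130 and Solyc07g017580 are named after their values were seen.

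A member could be lost in several lines. Of the 147 placed members, 51 were lost in 1 IL of their chromosome, 46 in 2, 19 in 3, 2 in 5 and 1 in 6. The one lost in 6 was Solyc12g010760 and one of those lost in 5 was Solyc12g098400, which were lost in 40 and 30 ILs of other chromosomes as well. The other, Solyc07g006300, at 10.4, 9.72, 5.85 and 9.28 CPM in M82, was lost in 5 of the 10 ILs of chromosome 7. It had 2 reads in the 4 libraries of IL7-4, 3 in those of IL7-4-1, 0 in the 3 libraries of IL7-5, 7 in IL7-5-5 and 6 in IL7-5-P75. The paper warns that counts of genes at the borders of introgressions may be suspect, and it names IL7-5-P75 among the lines most concerned. Whether this gene lies at such a border was not tested. Solyc04g051270 was lost in IL4-2, IL4-3 and IL4-3-2, as were Solyc04g015210 and Solyc04g054260. All 11 members of chromosome 7, all 12 of chromosome 12 and all 6 of chromosome 2 were lost in some IL of that chromosome. The share was lowest on chromosome 11, with 6 of 12 members, and on chromosome 1, with 13 of 20, and chromosome 6 lost 19 of 23. How many of these loci carry donor sequence in at least 1 of the ILs was not tested, so the shares of different chromosomes cannot be compared directly. Chromosome 6 held the largest share of members, 1.77% of its genes at 5 CPM or more, and chromosome 2 the fewest, 0.397%.

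Where an introgression lies was read from the other genes around a member, since its borders were not used here. A member was taken to lie in a marked stretch of an IL if at least 4 of its 40 nearest tested genes that are no members were called in that IL with an absolute log2 fold change of at least 1, at 3 or more times the share on the other chromosomes. Of the 196 pairs of a member and an IL of its chromosome with such a marked stretch, 155 were lost, which is 79.1% (95% Wilson interval 72.9 to 84.2%, counting error only). Of the 686 pairs outside marked stretches 61 were lost, or 8.89% (6.98 to 11.26%). Both intervals treat pairs as independent, although a member recurs in several ILs and neighbours can share a segment, so they are too narrow. In marked stretches 168 pairs were called lower and 4 higher. At least 1 IL marked the stretch of 124 members, among them 15 of the 20 on chromosome 1 and 10 of the 12 on chromosome 11. Of these, 100 were lost in a marked IL, 8 were called lower there without being lost, and 16 were called lower in none of the marked ILs. Of 56 members marked in at least 2 ILs, 42 were lost in every one. The absence of a mark did not mean that the level was kept, since 18 of the 23 members that no IL marked were lost in an IL of their chromosome. Solyc04g008810 is one of them, with 3 of 40 neighbours called in both ILs that lost it.

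The level in the lowest IL of the own chromosome was set beside that of the donor as a description only, because PENN had chosen the members and the lowest IL was picked for each. For the 119 lost members, the ratio of the mean in that IL to the PENN mean, with 0.5 CPM added to both, had a median of 1.14, and 92 members lay within 2-fold of PENN. In 24 members the IL stood more than 2-fold above PENN and in 3 more than 2-fold below. The added 0.5 CPM brings this ratio toward 1 where both levels are low. Among the 39 lost members with a PENN mean of at least 1 CPM the median ratio was 1.36, with 27 members within 2-fold, 9 above and 3 below. Of the 3 members that stayed more than 5-fold above PENN, Solyc09g007900 was the most abundant. It was lost in IL9-1 (67.7, 43.9, 38.9 and 51.1 CPM), IL9-1-2 (78.3, 41.8 and 53.2 CPM) and IL9-1-3 (43.4, 31.1, 38.5 and 46.3 CPM), with log2 fold changes of -4.44, -4.25 and -4.73 and standard errors of 0.15, 0.17 and 0.15. None of these 11 libraries reached down to the PENN libraries, which had 5.03 to 6.08 CPM. The second, Solyc07g008720, had 52.0, 48.5, 76.0 and 62.5 CPM in IL7-4 and a mean of 52.3 ± 4.36 CPM (SD, n = 4) in IL7-4-1. Both lay above PENN, at 8.47 ± 2.38 CPM (SD, n = 3). For Solyc01g108680, the third, singled out after its values were seen, 0 reads were counted in PENN but 5.08, 3.93, 4.75 and 4.64 CPM in IL1-4, where it was lost (log2 fold change -3.43, standard error 0.15). In the opposite direction, Solyc09g065330 had 2.71 ± 1.24 CPM (SD, n = 4) in IL9-2 and 6.08 ± 0.86 CPM (SD, n = 3) in PENN. The 17 members with no PENN read that were lost on their own chromosome gave 26 lost pairs, of which 8 had no read in the IL, 15 had at most 3 reads and the highest had 114 reads.

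**Figure D3:**
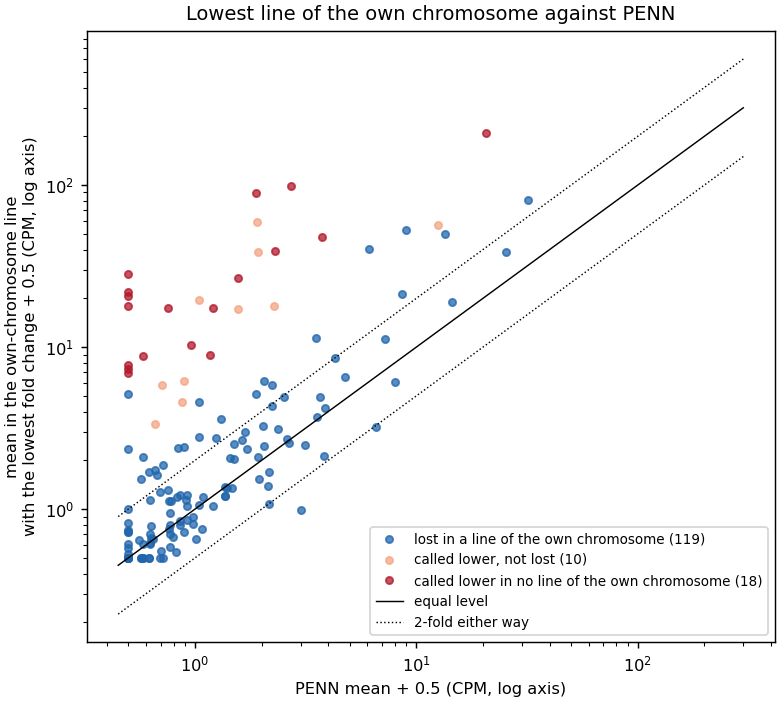
Mean level of each placed member in PENN (horizontal axis) and in the IL of its own chromosome with the lowest fold change (vertical axis), in CPM with 0.5 added, on log scales. Of the 119 lost members, 92 lie between the dotted lines at 2-fold either way, and all 18 members called lower in no such IL lie above them.

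No IL of the own chromosome was called lower for 18 members, and a further 10 were called lower without being lost. In those 10 the lowest log2 fold change on the own chromosome lay between -0.41 and -1.90. Solyc04g010240, singled out after its values were seen, was the most abundant of them, with 196 CPM in M82, 12.0 CPM in PENN and 56.6 CPM in IL4-2. The 18 are termed kept only because no call was made. Their lowest log2 fold changes on the own chromosome lay between -0.0015 and -2.02, so the absence of a call does not show that the M82 level was retained. Of the 18 kept members, 13 lay in a marked stretch of at least 1 IL, and 7 had no PENN read. Solyc10g083880 is an abundant example. It had 371, 267, 347 and 436 CPM in M82 and 24.7, 19.2 and 16.6 CPM in PENN. In IL10-2, where 8 of its 40 neighbours were called, it stood at 324, 149, 385 and 294 CPM, and in IL10-3, where 9 were called, at 237, 183, 223 and 192 CPM. Neither difference from the ILs of other chromosomes passed the threshold (adjusted p = 0.97 and 0.41, edgeR's quasi-likelihood test). Solyc06g069630, the kept member within the run of IL6-2, had 15.7 to 18.8 CPM in M82, at most 1.06 CPM in PENN and 23.9, 27.0, 16.8 and 21.1 CPM in IL6-2, where 10 of 40 neighbours were called (log2 fold change 0.34, standard error 0.12, adjusted p = 0.035). No IL marked the stretch of the other 5 kept members, Solyc01g090610, Solyc08g065490, Solyc05g013300, Solyc01g087260 and Solyc01g094030, which are named after their values were seen. Whether any of the 75 ILs carried donor sequence at these 5 loci was not tested.

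Several of the kept members shared a further feature. The M82 libraries agreed closely for the typical member, with an SD of 17.2% of the mean, but for 9 members the SD was over 50%. These 9 were picked out by that spread after it had been seen. Replicate 4 was the highest M82 library in all 9 and replicate 3 the lowest in 8. Solyc06g024210 had 67.9, 78.4, 36.1 and 243 CPM, Solyc07g039290 had 47.1, 58.9, 34.0 and 207 CPM, and Solyc06g005210 had 27.9, 63.3, 18.6 and 115 CPM. The same 9 members also rose and fell together among the ILs, which had not been used to pick them. Across all IL libraries their pairwise Pearson correlations of log2 CPM had a median of 0.738 (36 pairs), beside -0.0108 over the 9870 pairs of the other members. The libraries share sequencing pools and replicate numbers, and the correlation is given as a description. In replicate 2 of IL9-1-3 these members reached 434 to 2509 CPM, whereas the other 3 libraries of that line had 4.37 to 121 CPM. All 9 were called higher in IL9-1-3 by edgeR's quasi-likelihood test, with log2 fold changes from 1.53 to 2.59, but without replicate 2 none was, with log2 fold changes from -1.11 to -0.08. In IL12-3 the rise was not that of 1 library. Of the 9 members 8 were called higher there, and Solyc07g039290 had 436, 359, 179 and 127 CPM. Over the tested genes of other chromosomes, 29.9% were called in either direction in IL12-3 and 7.75% in IL9-1-3. Of all placed members of other chromosomes, 33 were called higher in IL12-3 and 28 in IL9-1-3. Leaving out each replicate in turn, between 1 and 9 members were called higher in IL12-3, and the log2 fold changes stayed between 0.79 and 1.85. Of the 8 placed members of wide spread, 6 were called lower in no IL of their chromosome, but a wide spread itself makes a call harder to reach.

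**Figure D4:**
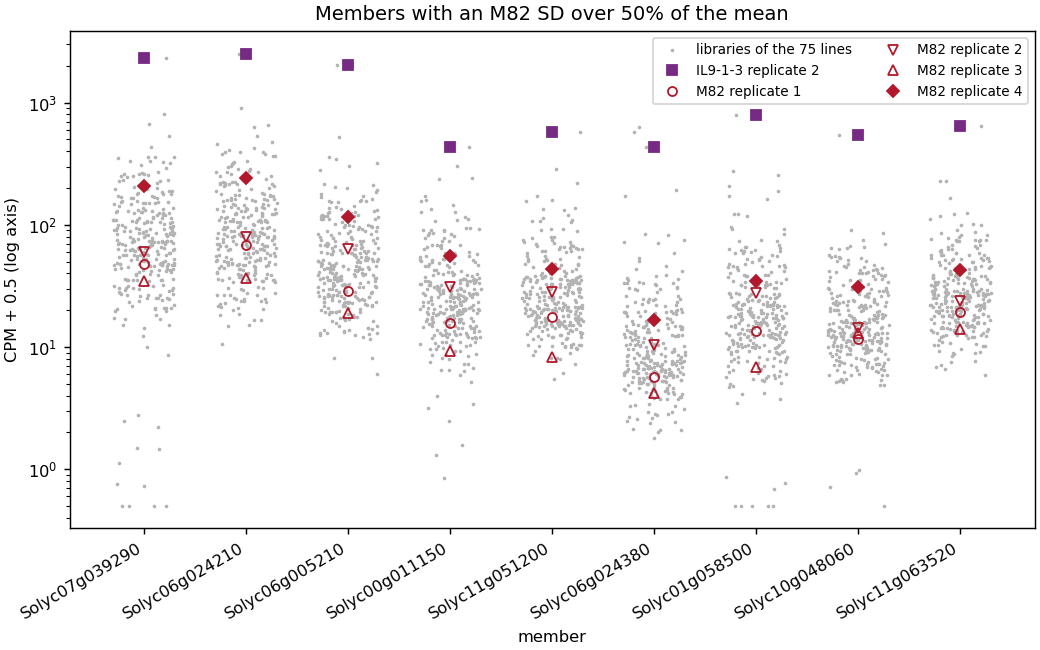
Level of the 9 members whose M82 SD was over 50% of the mean, in CPM with 0.5 added on a log axis, with 1 small grey point for each IL library, red symbols for the 4 M82 libraries and a purple square for replicate 2 of IL9-1-3. The filled M82 symbol, replicate 4, is the highest M82 library for all 9, and the purple square lies between 434 and 2509 CPM.

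IL6-1 set some of these members apart. No read of Solyc07g039290, a chromosome 7 member, was counted in any of the 4 libraries of IL6-1, at least 625-fold below the 94.1 CPM of the reference ILs (adjusted p = 2.13e-07, edgeR's quasi-likelihood test). The gene was also lost on its own chromosome, in IL7-4 (0.230, 0.971, 1.98 and 0.980 CPM) and IL7-4-1 (0.249, 1.73, 0.615 and 2.29 CPM). Solyc06g024210 stood at 16.2, 42.5, 14.3 and 38.6 CPM in IL6-1, which missed the threshold (log2 fold change -2.02, standard error 0.61, adjusted p = 0.026, edgeR's quasi-likelihood test). Solyc06g024380 went the other way in the same line. It was named after its values were seen, had a mean of 8.70 CPM in M82 and no PENN read, and rose to 173, 628, 193 and 578 CPM in IL6-1 (log2 fold change 5.00, standard error 0.41, adjusted p = 1.65e-57, edgeR's quasi-likelihood test). This was the largest rise among the 26 pairs called higher on the own chromosome.

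On other chromosomes the members were lost far less often. Of the 147 placed members 10, or 6.8%, were lost in at least 1 IL named for another chromosome, beside 0.941% of the other genes at 5 CPM or more and 2.91% of all other placed genes. Of 10143 such pairs 109 were lost, or 1.07%, beside 0.0381% over genes at 5 CPM or more and 0.284% over all genes. Calls of any size were more even, with 330 pairs lower (3.25%, beside 1.59% over either set of genes) and 396 higher (3.9%, beside 1.46% over genes at 5 CPM or more and 1.51% over all). These were not spread evenly, since IL4-4 alone gave 33 of the lower pairs and IL12-3 alone 33 of the higher. In these 2 ILs 35.4% and 29.9% of all tested genes of other chromosomes were called in either direction, so this concentration is not particular to the members. Solyc06g035940, Solyc12g010760 and Solyc12g098400 gave 27, 43 and 35 of the lower pairs and 11, 20 and 13 of the higher. Of the 109 lost pairs 97 came from these same 3 members, and without them 12 of 9936 pairs were lost, or 0.121%. Counted by member, 111 were lost on the own chromosome only, 8 on both, 2 on other chromosomes only and 26 in no IL.

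The 3 members lost in more than 20 ILs of other chromosomes differed from line to line, with replicates of a line mostly on the same side. Solyc06g035940 had 287, 350, 282 and 271 CPM in M82 and 1.20, 1.42 and 2.3 CPM in PENN. All libraries lay below 25% of the M82 mean in 28 ILs and above it in 43, and in only 4 ILs did replicates fall on both sides. IL6-1 was one of these, at 1.4, 106, 2.47 and 1.05 CPM, and IL8-2-1 another, at 2.14, 83.3, 3.09 and 1.19 CPM, replicate 2 being the high library in both. Of the 28 low ILs, replicate 2 also stood apart in IL12-1, IL4-1, IL12-4-1 and IL9-1-3, at 47.1, 26.7, 22.0 and 10.6 CPM. The library standing apart was replicate 3 in IL8-1-5 and replicate 4 in IL3-1, at 17.3 and 10.5 CPM. On its own chromosome the gene was lost in IL6-1, IL6-3 and IL6-4 but stood at 278 ± 48.7 CPM (SD, n = 4) in IL6-2. Solyc12g010760, at 10.9 to 16.1 CPM in the M82 libraries, lay below 25% of its M82 mean in all libraries of 48 ILs and above it in all libraries of 23. Its highest IL library had 31.1 CPM and its median IL library 0.275 CPM. Solyc12g098400, at 7.80 to 17.3 CPM in M82, was below in 51 ILs, above in 13 and mixed in 11. These last 2 are the members whose median over the ILs of other chromosomes was under 25% of M82. The pooled reference against which their losses were called was 4.00 to 4.71 CPM for Solyc12g010760 and 1.98 to 2.196 CPM for Solyc12g098400. The lines that were low for one of the 3 were only partly those low for another. Solyc06g035940 and Solyc12g010760 shared 19 low ILs, 67.9% of the first list and 39.6% of the second. Solyc06g035940 and Solyc12g098400 shared 20 (71.4% and 39.2%), and Solyc12g010760 and Solyc12g098400 shared 30 (62.5% and 58.8%).

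**Figure D5:**
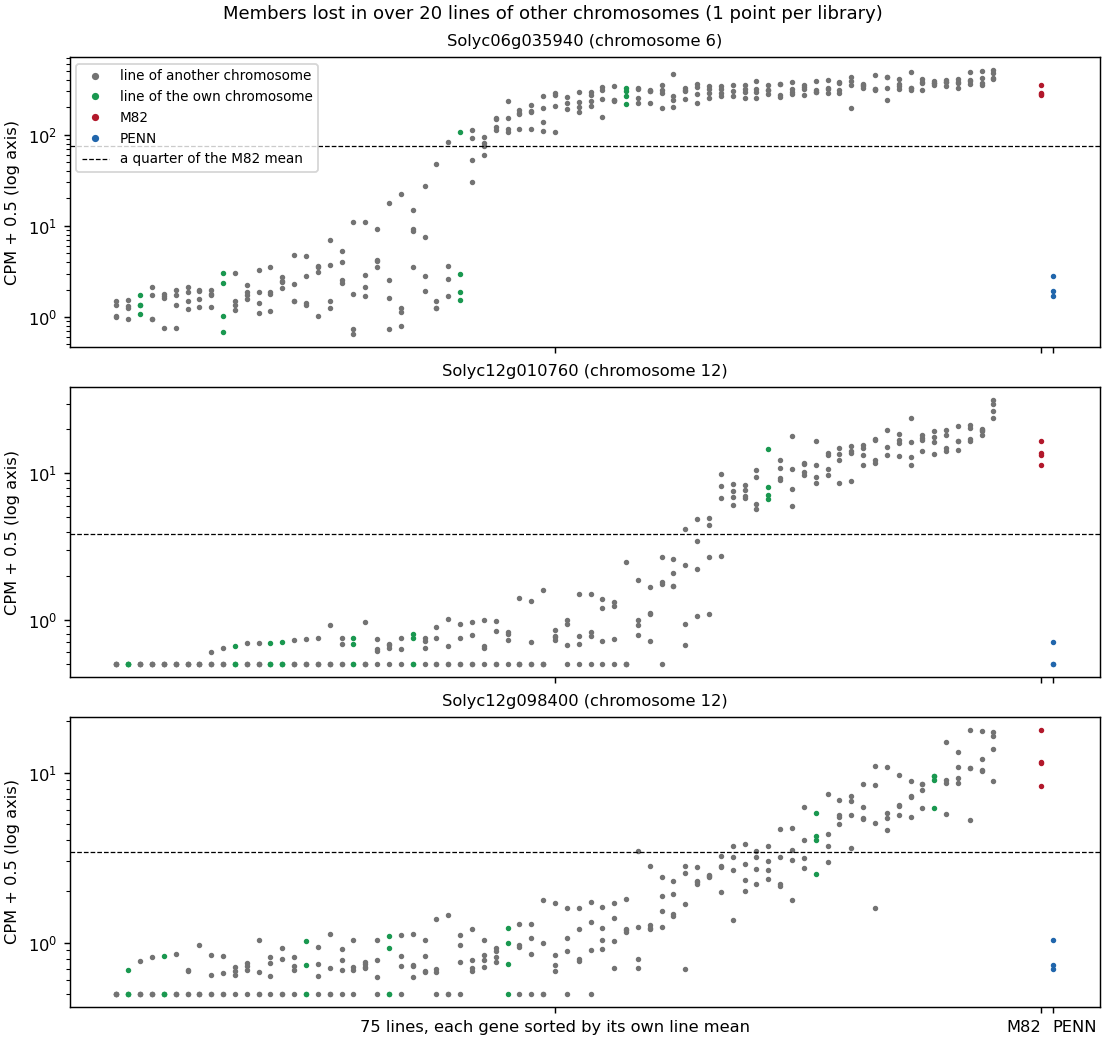
Level of Solyc06g035940, Solyc12g010760 and Solyc12g098400 in every library, in CPM with 0.5 added on a log axis, with the 75 ILs sorted in each panel by their own mean, ILs of the own chromosome in green, M82 in red and PENN in blue. The dashed line is 25% of the M82 mean, and all libraries of 28, 48 and 51 ILs lie below it.

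The other 7 members account for 12 lost pairs on other chromosomes. Solyc10g061950 had the most regular pattern. It had 8.12, 10.5, 3.72 and 10.14 CPM in M82 and no PENN read, and was lost in 3 ILs of chromosome 4 but in none of chromosome 10. It stood at 0.493, 0.271, 0.202 and 0.725 CPM in IL4-2, at 1.08, 0.616, 0.176 and 0.442 CPM in IL4-3 and at 0.828, 0.130, 0.413 and 0.227 CPM in IL4-3-2. The log2 fold changes were -4.18, -3.93 and -4.25, with standard errors of 0.75, 0.51 and 0.58, and adjusted p of 5.69e-14, 4.32e-18 and 6.61e-19 by edgeR's quasi-likelihood test. The 5 ILs of chromosome 10 all had means of at least 6.41 CPM. These are the same 3 ILs in which the chromosome 4 members Solyc04g015210, Solyc04g051270 and Solyc04g054260 were lost.

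Solyc04g015210 itself was lost both on chromosome 4 and in IL2-3. It had 349, 341, 288 and 321 CPM in M82, and means of 2.03, 5.59 and 3.46 CPM in IL4-2, IL4-3 and IL4-3-2. In IL2-3 it had 19.2, 24.6, 27.3 and 18.8 CPM, or 7.71% of the reference (log2 fold change -3.69, standard error 0.11, adjusted p = 9.75e-67, edgeR's quasi-likelihood test), and 2 of its 40 neighbours were called there. No library of IL2-3 overlapped with M82 or with the ILs of chromosome 4 that lost the gene. Solyc01g058500 was lost only in IL11-2 and IL11-3, with 2 and 3 reads in 4 libraries each. This is 0.446% of the reference (95% exact Poisson interval 0.0541 to 1.61%) and 0.466% (0.0961 to 1.36%). These intervals cover counting error only. The log2 fold change in IL11-2 was -6.96 with a standard error of 4.28, so the size of that loss is poorly determined. On its own chromosome it was higher in IL1-1-4, at 31.4, 277, 206 and 188 CPM against 6.38 to 34.1 CPM in the M82 libraries (log2 fold change 2.90, standard error 0.48, adjusted p = 3.57e-12, edgeR's quasi-likelihood test).

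The remaining losses were nearer the threshold against the ILs of other chromosomes. Solyc08g082950 was lost in IL8-3 on its own chromosome, at 1.29, 0.482, 1.29 and 1.47 CPM, and in IL10-3, IL11-4 and IL12-1-1, at 21.1%, 21.4% and 15% of the reference. Its median over the ILs of other chromosomes was 5.1 CPM, below its mean of 12.41 CPM in M82, and with M82 as the reference the log2 fold changes of the 3 losses on other chromosomes moved from -2.16, -2.14 and -2.61 to -3.13, -3.12 and -3.59. Against the ILs of other chromosomes it was called higher in IL8-1 (20.8 ± 5.05 CPM, SD, n = 4) and IL8-1-1 (11.8 ± 1.47 CPM, SD, n = 4), the second of which, at 9.91 to 13.5 CPM, lay within the range of the M82 libraries, 9.1 to 18.5 CPM. Solyc11g072200 fell to 0.415, 0.537, 1.02 and 0 CPM in IL11-4 and stood at 7.65, 9.27, 20.6 and 13.8 CPM in IL9-2-5, 23.9% of the reference. Solyc08g062910 stood at 40.6, 7.34, 24.6 and 36.1 CPM in IL4-4, 24.8% of the reference. Of the 12 pairs, 7 were lost in each of 9 refits with another scaling, filter, reference or set of libraries. Solyc08g062910 in IL4-4, Solyc11g072200 in IL9-2-5, Solyc01g058500 in IL11-2 and Solyc08g082950 in IL10-3 and IL11-4 were not.

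The 3 members with no chromosome assignment, whose identifiers begin with Solyc00, were lost in ILs of chromosomes 11 and 12. Solyc00g075440 had 214, 180, 363 and 290 CPM in M82 and fell to 1.58, 2.61, 2.97 and 2.46 CPM in IL12-3 and to 2.47, 6.90, 8.52 and 10.32 CPM in IL12-4. Solyc00g184350 had 6.26 to 10.07 CPM in M82 and 0.119, 0.748, 0 and 0.546 CPM in IL11-1 (adjusted p = 6.36e-16, edgeR's quasi-likelihood test). Solyc00g011150, one of the 9 members of wide spread, had 8.77 to 55.0 CPM in M82, 4.63, 0.342, 2.00 and 2.64 CPM in IL11-2 and 1.08, 3.45, 2.88 and 0.791 CPM in IL11-3. These are also the ILs that lost Solyc01g058500, another of the 9. The 3 loci are named after their values were seen, and whether they lie in those introgressions was not tested.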

How the data were processed

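Root-tip RNA was sequenced as 50 bp reads, and replicates were grown independently with numbers that follow the plating date. Per the labels and the study's methods, the authors mapped reads with BWA to references that carry S. pennellii sequence inside each introgression, counted them with SAMtools, and deposited whole-number counts per gene without normalization. The sources used here state no tool versions. The authors' comparison tables hold fold changes and p-values, and they and the normalized tables were not used. The count table also holds 9 columns of samples not analysed here.

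Libraries were grouped by genotype from the labels. The members and all lists were chosen with earlier results of these data known. Counts of the IL libraries were scaled by TMM (factors 0.8346 to 1.142), filtered by filterByExpr to 19412 genes, and fitted in edgeR 4.0.16 under R 4.3.3 with genotype as the only term. Each IL was tested by quasi-likelihood against the pooled level of ILs of other chromosomes, with Benjamini-Hochberg adjustment within the IL and a prior of 0.1 CPM in fold changes. The pooled level was taken as known, so neither its error nor the variation among the reference ILs enters p or the standard errors. The study's own reference, M82, was an alternative because M82 had chosen the members. In that alternative the error of the M82 level does enter. Poisson and Wilson intervals and the floor of 3 reads cover counting error only. Tables and plots used Python 3.11.15, pandas 2.3.3, NumPy 2.4.6, SciPy 1.17.1 and Matplotlib 3.10.9.

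Libraries with the same replicate number were processed as a pool, and their deviations from the genotype means correlated at 0.132 on average, against -0.0428 for different numbers (14657 genes). On simulated counts (IL7-4, 19412 genes), 92% of genes lowered by a log2 change of -1 and 100% of those lowered by -2, -3 or -5 were called lower. The loss threshold took 56% at -2 and 100% at -3 and -5. The simulation gave all genes nearly the same spread (prior degrees of freedom 17660, against 8.08 in the data), so these rates do not carry over to members of variable level.

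Genes named in the text are the 10 members with the largest ratio, the 10 lost in the most ILs of their own and of other chromosomes, the 10 most abundant in M82, the 10 most abundant in a marked stretch that were not called lower, and the 3 genes on each side of the last rank. Others are said to be chosen after their values were seen. No annotation was used here, so planned groupings by function and checks of tissue markers were not made. Alternatives covered the scaling, the filter, the replicate block, the reference, the thresholds, the ranking and each replicate left out. Leaving out 3 ILs, 3 members or the 2 libraries under 1000000 reads was added after seeing the data, as were the counts inside the runs and those for a PENN mean of at least 1 CPM.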

Additional observations from a re-analysis of the deposited data

Results flagged for a closer look

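Among 106 groups of 4 libraries of the named members, 12 had 1 library far from the other 3. For a continuous measure chance alone gives about 5%, but in 9 of the 12 the other 3 libraries had no read, so that any read sets the library apart and this rate does not apply. In M82, replicate 4 of Solyc07g039290 stood at 207 CPM with the others at 34.0 to 58.9 CPM, and replicate 3 of Solyc12g009790 at 60.3 CPM with the others at 73.8 to 75.7 CPM. In IL6-1, replicate 2 of Solyc06g035940 stood at 106 CPM with the others at 1.05 to 2.47 CPM. The 9 groups with no read in the other libraries were Solyc08g062910 in IL8-1-1 (0.126 CPM in replicate 2), Solyc06g067880 and Solyc06g054550 in IL6-2 (0.434 CPM in replicate 1 for both), and Solyc07g006300 in IL7-4-1 (0.432 CPM in replicate 2). The others were Solyc12g010760 in IL12-2 (0.196 CPM), IL12-3-1 (0.163 CPM) and IL12-4 (0.202 CPM), and Solyc12g098400 in IL12-1-1 (0.185 CPM) and IL12-4 (0.329 CPM).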

How the results depend on the processing

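Over 25 alternatives the count of members lost on the own chromosome ranged from 105 to 127 and that of pairs from 183 to 230, and the share lost in marked stretches from 74.3 to 84.2% over 10 alternatives. On other chromosomes 36 members and 170 pairs were lost at a log2 fold change of -1 or below, 37 pairs with 5 CPM added in the ranking, and 12 without the 3 members low in many ILs. Without each replicate in turn, 118 to 120 members and 214 to 216 pairs were lost on the own chromosome and 9 to 12 members and 105 to 111 pairs on others. With the replicate block, which respects the pairing, these were 119, 216, 9 and 108, the marked share was 78.4%, and 216 of 216 own pairs were shared with the unblocked fit. Adding 5 CPM kept 98 of the 150 members, 0.1 CPM kept 118, and leaving out a parental library kept 137 to 146. Among named members, none reversed in its lowest IL, but the call of a lower level was lost with M82 as the reference for Solyc01g107270 in IL4-4 (-0.82 from -0.94, also without replicate 2), Solyc01g104100 in IL9-2-5 (-0.97 from -0.82, also without any 1 replicate) and Solyc01g058500 in IL11-2 (-6.58 from -6.96), all log2 fold changes of similar size. The cause was not tested. The planned DESeq2 test was not run to its end and gives no value. With few reads in a line, a loss to 1% and a loss to 0 cannot be told apart for the members of low level.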
